A study of Homo with 4 samples.

Results

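The genes examined here code for the heterogeneous nuclear ribonucleoproteins (hnRNPs) and the serine/arginine-rich (SR) splicing factors, together with the polypyrimidine tract binding proteins, MATR3 and SFPQ. Members were the genes whose RefSeq symbol at their GRCh38 position began with HNRNP or with SRSF and a digit, or was TRA2A, TRA2B, PTBP1, PTBP2, PTBP3, MATR3 or SFPQ. Of 45 such symbols, 44 had an Ensembl gene in the count table, and HNRNPA1L3 had none. SRSF1 and MATR3 each met 2 overlapping Ensembl genes, which gave 46 genes of 20263 in all: 25 hnRNP genes, 15 SR genes and 6 PTBP, MATR3 and SFPQ genes. They held 330 of the 95139 transcripts, and 316 of these had a count in at least 1 library.

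hnRNPs coat newly made transcripts and many of them silence nearby splice sites, whereas SR proteins bind exonic enhancers and recruit the splicing machinery. The balance of both classes sets which exons are kept in a given cell. Many of these genes are also spliced alternatively themselves, and several limit their own level by producing transcripts that are degraded by nonsense-mediated decay.

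H1299, a widely used human cell line of non-small cell lung cancer, was profiled by RNA-seq after lentiviral infection with a control hairpin (shCtrl, genotype given as WT, n = 2) or with a hairpin against IGF2BP3 (shIGF2BP3, n = 2). IGF2BP3 is an RNA-binding protein known for stabilizing its target mRNAs. All 4 libraries came from cells kept in RPMI medium with fetal bovine serum, and both groups carried a lentivirus. The labels call the libraries biological replicates, do not say from which clone or pool of infected cells they came, and do not say whether both shIGF2BP3 libraries carried the same hairpin, so that a difference between hairpins could be part of their spread. Total counts were 29709686 to 34817513 per library, and mitochondrially encoded genes took 9.11% and 13.4% of them in the shCtrl libraries, against 11.4% and 17.0% after knockdown. IGF2BP3 itself had 41.1 and 32.9 CPM in shCtrl against 26.4 and 24.8 CPM in shIGF2BP3, where CPM is the count scaled to a common library size, with a log2 fold change of -0.53 (edgeR, SE 0.17, adjusted p = 0.472). The cells are labelled epithelial lung cells. The keratins KRT8 (699 to 926 CPM) and KRT18 (1044 to 1398 CPM) were abundant, whereas KRT7 stood at 5.27 to 7.85 CPM. KRT19 stayed at or below 0.29 CPM, EPCAM at or below 0.35 CPM and CDH1 at or below 0.06 CPM. The lung lineage factor NKX2-1 stayed at or below 0.20 CPM. Of the mesenchymal markers, VIM stood at 4338 to 7100 CPM. CDH2 (28.4 to 37.2 CPM), FN1 (13.9 to 32.2 CPM) and ZEB1 (10.97 to 16.3 CPM) were far lower. The 4 immune and 3 endothelial markers examined stayed at or below 0.30 CPM.

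Most of these splicing factors were among the abundant mRNAs of H1299 cells. Levels between genes were compared per length, as FPKM, the fragment count scaled by transcript length and library size, summed over a gene's transcripts. Of the 42 members that passed the low-count filter, 40 lay above the median of all genes tested, 5.82 FPKM. The median member stood at 70.5 FPKM, the median hnRNP gene at 144 FPKM and the median SR gene at 55.3 FPKM. HNRNPA2B1, which packages nascent RNA together with HNRNPA1, led with 901 and 857 FPKM in shCtrl and 898 and 966 FPKM in shIGF2BP3. HNRNPA1 followed at 580.5 and 506 FPKM in shCtrl and 562 and 564 FPKM in shIGF2BP3. Neither range overlapped with that of the next gene. HNRNPL, a reader of CA-rich RNA, had 334 to 353 FPKM over the 4 libraries. HNRNPUL1 and HNRNPAB came next, at 292 to 361 and 288 to 316 FPKM. From HNRNPL through HNRNPUL1 and HNRNPAB to HNRNPD, each range overlapped with that of its neighbour.

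Among the SR genes, SRSF5 had the highest mean, with 137 and 116 FPKM in shCtrl and 144 and 138 FPKM in shIGF2BP3. SRSF9 came next but varied more, with 196 and 100.1 FPKM in shCtrl and 138 and 95.2 FPKM in shIGF2BP3. The ranges of SRSF5, SRSF9, SRSF1 and SRSF3 overlapped in order, each with its neighbour. TRA2B, which binds purine-rich enhancers together with its paralog TRA2A, stood at 65.2 to 80.2 FPKM and TRA2A at 27.3 to 34.7 FPKM. The tested member with the lowest level was SRSF12, at 0.252 to 0.452 FPKM. PTBP1, a repressor of exons flanked by pyrimidine-rich RNA, stood at 46.6 to 57.7 FPKM. Its paralogs PTBP3 and PTBP2, the latter known from neurons, stood at 8.60 to 12.3 FPKM and at 3.54 to 4.17 FPKM. All 3 ranges stood apart.

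**Figure D1:**
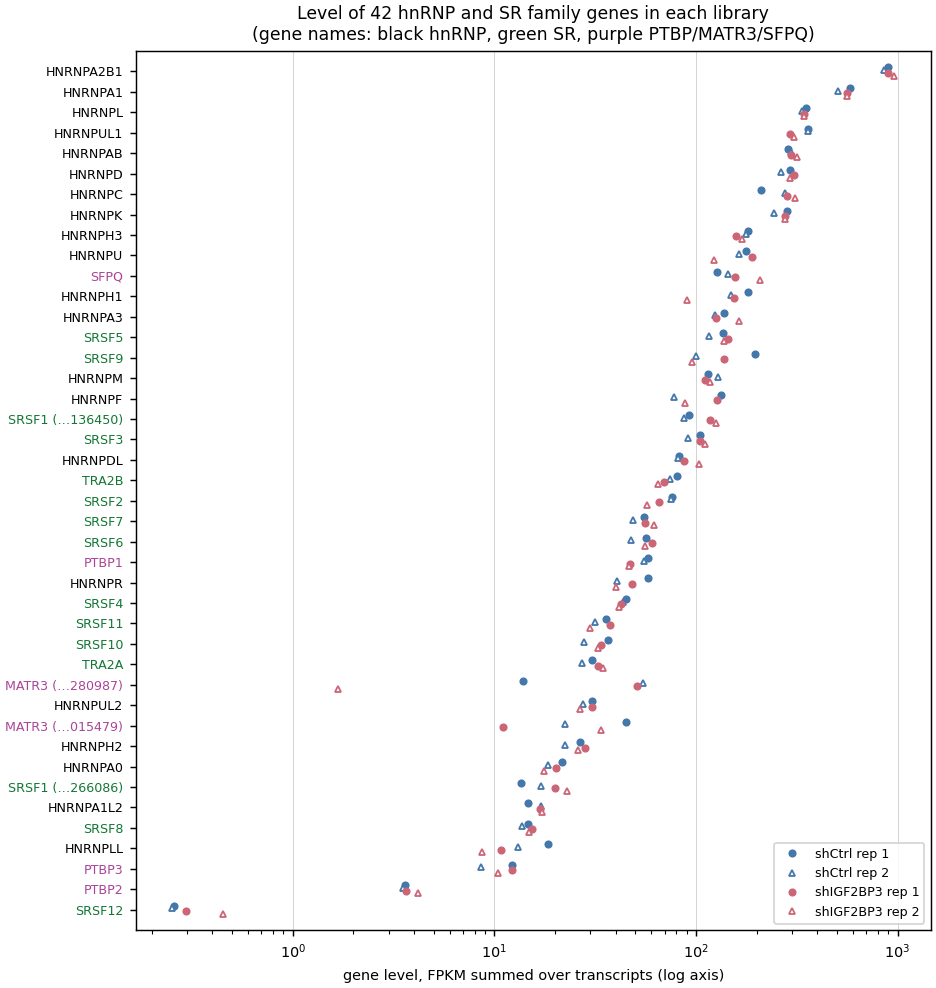
Gene level of the 42 tested members in each of the 4 libraries, as FPKM summed over transcripts on a log axis, in order of the mean; blue marks shCtrl and red shIGF2BP3, circles replicate 1 and triangles replicate 2. HNRNPA2B1 and HNRNPA1 lead in every library, and SRSF12 has the lowest mean.

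The 4 members that did not pass the filter were the HNRNPC-like genes HNRNPCL1, HNRNPCL2, HNRNPCL3 and HNRNPCL4. HNRNPCL3 and HNRNPCL4 had a count of 0 in every library. HNRNPCL1 and HNRNPCL2 stayed at or below 0.0363 CPM.

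The members as a whole took 1.47% and 1.32% of all counts in the shCtrl libraries, against 1.44% and 1.43% after knockdown. The groups overlapped on this scale. Of the counts without mitochondrially encoded genes they took 1.62% and 1.52% against 1.63% and 1.73%, where the groups did not overlap. Of all FPKM they took 1.05% and 0.895% against 0.983% and 0.920%, where the groups overlapped. In any case, 2 libraries against 2 cannot give a permutation p under 0.333 on both sides. As in any bulk sample, a change in the number of cells that hold an mRNA and a change in the amount per cell cannot be told apart.

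No member passed the thresholds of fold 1.5 and unadjusted p 0.05 in edgeR's quasi-likelihood test (0 of 42), against 5.32% of the 13379 genes tested, of which 2.54% were higher and 2.78% lower in shIGF2BP3. None passed an adjusted p of 0.05, as was so for 0.0% of all genes tested. The edgeR fit gave an unadjusted p at or below 0.05 for 1 member and for 1411 genes in all (10.5%). DESeq2 placed 157 genes and edgeR's exact test 101 genes under an adjusted p of 0.05, and 0 of these were members.

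The members' log2 fold changes lay on the higher side nonetheless. Of the 42, 31 were above 0 (73.8%), against 49.8% of all genes tested, and the median was 0.15, against -0.0019 over all genes. The median was 0.15 in the hnRNP genes (16 of 21 above 0), 0.20 in the SR genes (12 of 15 above 0) and 0.05 in the PTBP, MATR3 and SFPQ genes (3 of 6 above 0). In 23 members both shIGF2BP3 libraries lay above both shCtrl libraries, and in 4 both lay below, against 23.3% and 23.5% of all genes tested. In 27 of the 42 members (64.3%) shIGF2BP3 replicate 2 was the highest library, against 31.0% of all genes tested. That library had the largest mitochondrial share and the lowest total count. A fit without the mitochondrially encoded genes kept 13366 of the 13379 genes and gave the members a median of 0.15 again. So small a change could hardly move it, and it does not address what the mitochondrial share reflects. The parts of that share and of depth were not tested. Without shIGF2BP3 replicate 2 the median was 0.09, and without shIGF2BP3 replicate 1 it was 0.23. When library totals alone were used for scaling, the median of all genes moved to -0.08 and that of the members to 0.07, with 24 of 42 above 0. The difference between both medians was 0.15 under either scaling. In limma on log2(FPKM + 1) it was 0.13, with 24 of 41 members above 0, and 0.08 without the filter. Leaving out single libraries moved it between 0.095 and 0.23.

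**Figure D2:**
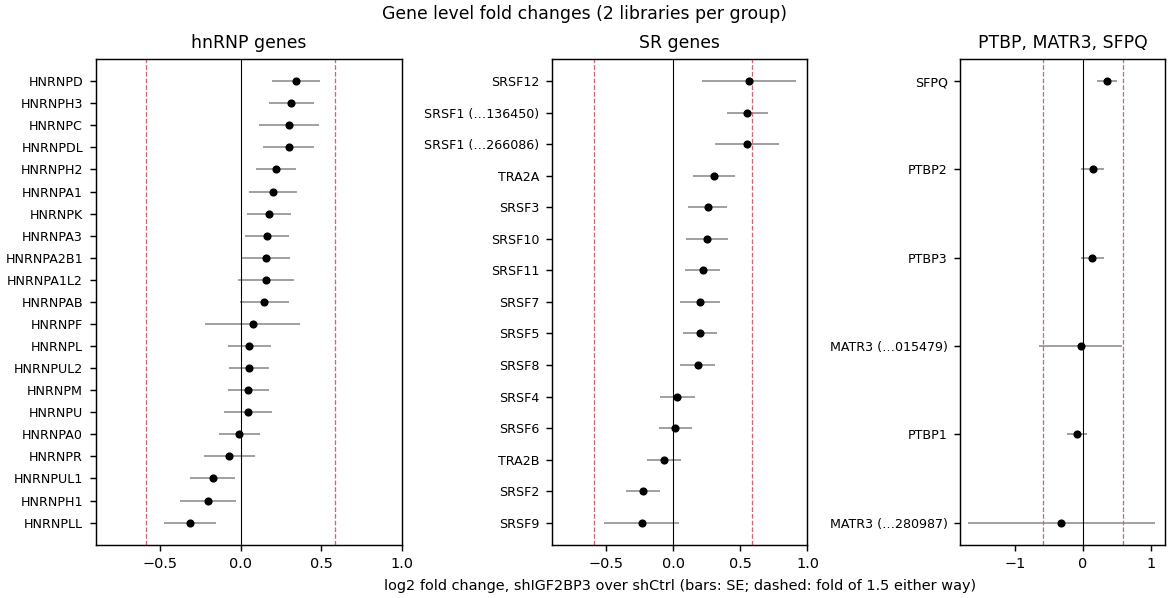
Log2 fold change of shIGF2BP3 over shCtrl for each tested member, with bars for the standard error and dashed lines at a fold of 1.5 in either direction, in 3 panels for hnRNP genes, SR genes and the PTBP, MATR3 and SFPQ genes. No point lies beyond a dashed line, and the 2 MATR3 genes have the widest bars.

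SRSF1, the founding SR protein and a known proto-oncogene, gave the member of smallest p. The larger of its 2 Ensembl genes, ENSG00000136450 on chromosome 17 (58003360 to 58007346, minus strand), had 254 and 267 CPM in shCtrl and 342 and 422 CPM in shIGF2BP3. Both shIGF2BP3 libraries were above both shCtrl libraries. The log2 fold change was 0.55 (edgeR, SE 0.15, adjusted p = 0.472), which lies under a fold of 1.5. The overlapping gene ENSG00000266086 (57989038 to 58005253) had 10.5 and 14.7 CPM in shCtrl and 16.4 and 20.4 CPM in shIGF2BP3, with the same direction and a log2 fold change of 0.55 (SE 0.24). Because reads of overlapping genes may be split between them, the counts of both were also summed. The SRSF1 locus then had 265 and 281 CPM in shCtrl and 359 and 442 CPM in shIGF2BP3 (log2 fold change 0.55, edgeR adjusted p = 0.471). Leaving out single libraries moved the fold change of ENSG00000136450 between 0.39 and 0.70. Without shCtrl replicate 2 and without shIGF2BP3 replicate 1 both SRSF1 genes were past the thresholds of fold 1.5 and unadjusted p 0.05.

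SFPQ, a paraspeckle protein that pairs with NONO, had 356 and 379.5 CPM in shCtrl and 424 and 517 CPM in shIGF2BP3. HNRNPD, known as AUF1 for its binding to AU-rich elements, had 382 and 379 CPM in shCtrl and 436 and 529.8 CPM in shIGF2BP3. In both genes the groups did not overlap and shIGF2BP3 replicate 2 was the highest library. The log2 fold changes were 0.35 (SE 0.15) and 0.34 (SE 0.15), with edgeR adjusted p = 0.480 and 0.481. HNRNPH3, a binder of G-rich RNA, had 315 and 335 CPM in shCtrl and 374 and 434 CPM in shIGF2BP3 (log2 fold change 0.31, SE 0.14). Its FPKM sum had the opposite order, with 182 and 178 FPKM in shCtrl and 158 and 169 FPKM in shIGF2BP3, and the make-up of its transcripts differed between the groups, as described below. TRA2A had 61.7 CPM in both shCtrl libraries and 68.2 and 84.5 CPM in shIGF2BP3 (log2 fold change 0.31, SE 0.16). This gene lies 34312 bases from IGF2BP3 on chromosome 7.

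The largest fold change among all members was that of SRSF12, at 0.56 with an SE of 0.35, from 1.04 and 1.12 CPM to 1.25 and 1.96 CPM. HNRNPC, a binder of uridine tracts, had 389 and 520.3 CPM in shCtrl and 527 and 593 CPM in shIGF2BP3, with a log2 fold change of 0.30 (SE 0.18). The abundant members moved less. HNRNPA2B1 had 1678 and 1768 CPM in shCtrl and 1773 and 2069 CPM in shIGF2BP3, a log2 fold change of 0.16 (SE 0.15). For HNRNPA1 the values were 1484 and 1402 CPM against 1532 and 1782 CPM (0.20, SE 0.15). SRSF3, which autoregulates by an exon of its own, had 439 and 413 CPM against 466 and 554 CPM (0.26, SE 0.15). SRSF5 had 252 and 244 CPM against 278 and 291 CPM (0.20, SE 0.12). In these 4 genes the shIGF2BP3 libraries were above the shCtrl libraries, and none of the differences passed the test. HNRNPAB (0.15, SE 0.15) and HNRNPL (0.05, SE 0.13) had overlapping groups.

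Of the members on the lower side, HNRNPLL, known for its regulation of CD45 splicing in lymphocytes, had 48.7 and 39.9 CPM in shCtrl and 37.2 and 34.0 CPM in shIGF2BP3. Its log2 fold change was -0.32 (edgeR, SE 0.16, adjusted p = 0.517). On the FPKM scale it had 18.5 and 13.1 in shCtrl against 10.8 and 8.69 in shIGF2BP3, and limma on log2(FPKM + 1) gave -0.64 with an adjusted p of 0.465, past the thresholds of fold 1.5 and unadjusted p 0.05. SRSF2, also known as SC35, had 128 and 136 CPM in shCtrl and 114 and 111 CPM in shIGF2BP3 (log2 fold change -0.23, SE 0.13). HNRNPUL1 had 1172 and 1257 CPM in shCtrl and 1015 and 1136 CPM in shIGF2BP3 (-0.18, SE 0.14). The groups did not overlap in these 3 genes. In HNRNPH1 (-0.20, SE 0.18) and SRSF9 (-0.23, SE 0.28) they did. SRSF9 had 237 and 139 CPM in shCtrl and 178 and 143 CPM in shIGF2BP3, and without shCtrl replicate 1 its fold change was on the higher side, at 0.21.

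PTBP1 had 162 and 172 CPM in shCtrl and 143 and 172 CPM in shIGF2BP3 (log2 fold change -0.08, SE 0.15). Its neural paralog PTBP2, whose mRNA PTBP1 is known to repress, had 13.4 and 14.6 CPM against 14.7 and 16.3 CPM (0.14, SE 0.17). PTBP3 had 97.5 and 76.4 CPM against 98.7 and 93.0 CPM (0.14, SE 0.17). TRA2B had 219.8 and 225 CPM against 208 and 216 CPM (-0.07, SE 0.12). None of these 4 differences exceeded the spread of the libraries by the test.

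The 2 Ensembl genes at MATR3, a nuclear matrix RNA-binding protein, varied in opposite directions from library to library. ENSG00000280987 had 46.1 and 143 CPM in shCtrl and 147 and 4.21 CPM in shIGF2BP3. ENSG00000015479 had 156 and 94.7 CPM in shCtrl and 52.4 and 193 CPM in shIGF2BP3. Each was low where the other was high, within both groups. The genes share 38024 bases on the plus strand of chromosome 5. Summed, the locus had 202 and 238 CPM in shCtrl and 199.7 and 197 CPM in shIGF2BP3, a log2 fold change of -0.15 (SE 0.14, edgeR adjusted p = 0.697). Without shIGF2BP3 replicate 1, ENSG00000280987 alone was past the thresholds of fold 1.5 and unadjusted p 0.05 (log2 fold change -4.48), and without shIGF2BP3 replicate 2 ENSG00000015479 was (-1.26). Counts of either MATR3 gene by itself are therefore uncertain.

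Other members also shared positions with further genes. Of those tested, 7 overlapped another listed gene on the same strand and 6 on the opposite strand. HNRNPH2 overlaps the readthrough gene RPL36A-HNRNPH2 over 4003 bases of the same strand, and the latter had 1180 and 844 counts in shCtrl and 2534 and 1444 counts in shIGF2BP3. HNRNPA1L2, a near copy of HNRNPA1 that may share its reads, had 48.5 to 65.1 CPM. HNRNPUL1 overlaps TGFB1 on the opposite strand over 6012 bases. Whether strand was used in counting is not given in the sources used here, so reads of these pairs may be divided between them.

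The genes that work beside the members were compared by lists of 22 hnRNP-like RNA-binding proteins, SR kinases with their importer, SR-related proteins, core snRNP proteins and nonsense-mediated decay factors. Of 84 listed genes 82 were tested, and 45 had a fold change above 0. At fold 1.5 and unadjusted p 0.05, 3 were called higher and 1 lower, where 2.54% and 2.78% of all genes tested were called, so these calls were near the general rate. An adjusted p of 0.05 in edgeR was passed by 0 of them, and 14 had an unadjusted p at or below 0.05, against 10.5% of all genes. The median was 0.08 in the hnRNP-like proteins, 0.0040 in the SR kinases, 0.06 in the SR-related proteins, -9.4e-05 in the core snRNP proteins and 0.0037 in the decay factors, each below the members' 0.15. Among the hnRNP-like proteins, the splicing regulators MBNL2 (3.67 and 4.52 CPM against 9.27 and 10.8 CPM) and MBNL1 (81.5 and 122 CPM against 151 and 166 CPM) were called higher. SNRPD3, a ring protein of the spliceosomal snRNPs, was called higher with 128 and 159.7 CPM against 192 and 239.7 CPM. SMG8, a regulator of the decay kinase SMG1, was called lower with 43.5 and 36.8 CPM against 21.4 and 20.3 CPM. RBMX (225 and 185 CPM against 153 and 122 CPM) had a log2 fold change of -0.58, just under the fold threshold. The genes named in this paragraph were chosen after their values were seen.

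Transcript shares, the percentage of a gene's counts given to each of its transcripts, could be tested in 36 members with at least 2 transcripts past the filter, 245 transcripts in all. The edgeR test of usage asks whether a transcript moved against the other transcripts of its gene. It called 3 member transcripts at an adjusted p under 0.05, where 0.83% of 33125 transcripts were called. They lay in 2 of the 36 members, PTBP3 and MATR3. Both were also called as genes, by a Simes p that combines the p values of a gene's transcripts, as were 2.8% of 8479 genes. At an unadjusted p of 0.05 there were 10 member transcripts, against 4.51% of all transcripts tested. The diffSplice test of limma, run as an alternative, called 6 member transcripts, in PTBP1, HNRNPH3, PTBP3 and HNRNPR, where 1.05% of all were called. Intervals given for shares are 95% Wilson intervals and cover counting error only; the counts are estimates and the error of assigning reads to similar transcripts is not in them.

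PTBP3 had no called difference in gene level, while 1 of its 2 main transcripts was at or near 0 in shIGF2BP3. ENST00000334318 (chromosome 9, 112217716 to 112333664, minus strand) had 1954 and 1258 counts under shCtrl but 2 and 0 counts under shIGF2BP3. Its share was 53.3% (51.7 to 54.9) and 48.6% (46.7 to 50.6) in shCtrl and 0.0587% and 0% in shIGF2BP3, where a count of 0 allows up to 0.117%. The usage test gave an adjusted p of 0.0055 in edgeR. ENST00000374257 had 1600 and 1277 counts in shCtrl and 3341 and 2520 counts in shIGF2BP3, and its share went from 43.6% and 49.4% to 98.1% and 98.4%. Replicates of a group were close, and the groups were far apart in both transcripts. The transcripts begin within 3 bases of each other, and the one missing from shIGF2BP3 ends 719 bases further downstream; from counts and FPKM its length was 1.10 times that of the other. The call was kept under 6 of the 9 alternatives that could give it a value. However, 1 of these 6 pooled the genes of SRSF1 and of MATR3 only, which could hardly change the result for PTBP3. It was not kept with the replicate number as a block (adjusted p = 0.114), without shCtrl replicate 1 (0.185) or without shCtrl replicate 2 (0.162), and a filter of 10 counts in every library removed the transcript.

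At MATR3, ENST00000618441 had 1217 and 962 counts in shCtrl and 0 and 0 in shIGF2BP3, with shares of 20.7% and 29.97% of ENSG00000015479 in shCtrl and upper limits of 0.166% and 0.0564% in shIGF2BP3. ENST00000620916 had 1290 and 929 counts in shCtrl and 4 and 2 in shIGF2BP3, with shares of 22.0% and 28.9% against 0.221% and 0.0376%. Their adjusted p values were 0.0030 and 0.0075 by edgeR. ENST00000394805 took the larger part of that gene in shIGF2BP3, with 84.1% and 97.2% against 24.1% and 32.7% in shCtrl. The same reads could also fall on the overlapping Ensembl gene, and with both genes taken as 1 locus the 2 transcripts had adjusted p values of 0.252 and 0.576. Over the locus ENST00000504203 took 2.46% and 59.1% in shCtrl and 52.7% and 0% in shIGF2BP3, so replicates of a group differed as much as the groups. Neither transcript was called when any single library was left out, with adjusted p values of 0.0879 to 0.393 and 0.160 to 0.693 in edgeR.

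**Figure D3:**
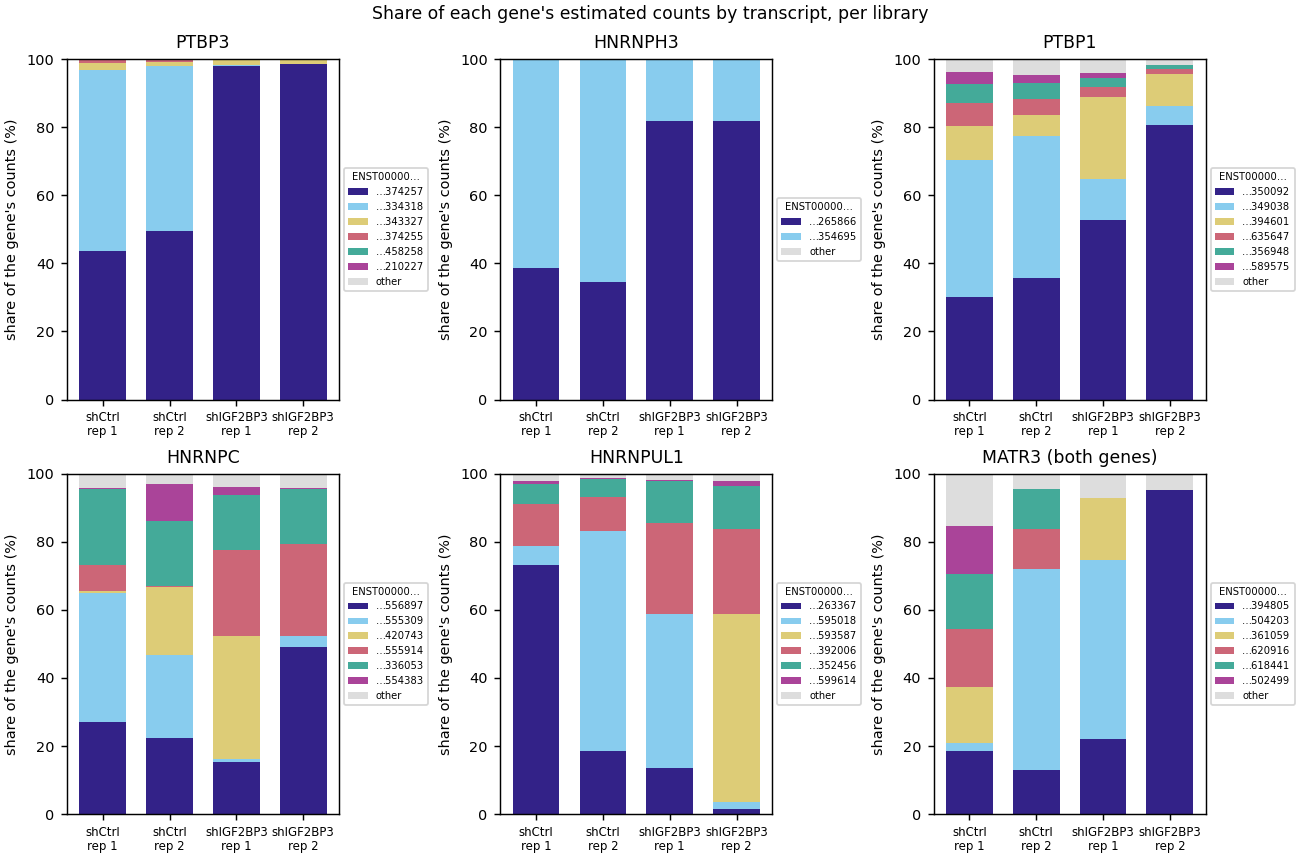
Share of a gene's estimated counts held by each transcript, in percent, as stacked bars for the 4 libraries, in 6 panels for PTBP3, HNRNPH3, PTBP1, HNRNPC, HNRNPUL1 and MATR3 with its Ensembl genes pooled; the 6 transcripts of highest share are coloured and the rest are grey. PTBP3 and HNRNPH3 look alike within a group and differ between groups, whereas HNRNPUL1 and MATR3 differ from library to library.

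HNRNPH3 also showed a shift that was alike in both replicates. ENST00000354695 had 7272 and 7431 counts in shCtrl and 2353 and 2172 in shIGF2BP3, a share of 61.4% and 65.4% against 18.2% in both. ENST00000265866 had 4575 and 3927 counts in shCtrl and 10548 and 9785 in shIGF2BP3, a share of 38.6% and 34.6% against 81.8% in both. The groups did not overlap, and the difference was 45.2 percentage points. ENST00000354695 ends 915 bases upstream of ENST00000265866, and its length was 0.568 times that of the latter. The edgeR usage test gave an adjusted p of 0.952, while limma's diffSplice gave an adjusted p of 0.0028 for this transcript. HNRNPH3 overlaps RUFY2 and PBLD on the opposite strand, with 341 to 488 and 87 to 120 counts in the 4 libraries.

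PTBP1 differed between groups in the same sense but less evenly. ENST00000349038 held 40.4% and 41.7% of its counts in shCtrl and 12.0% and 5.67% in shIGF2BP3 (adjusted p = 0.746 by edgeR and 0.0011 by limma's diffSplice). ENST00000350092 held 30.1% and 35.8% in shCtrl and 52.7% and 80.6% in shIGF2BP3. In HNRNPC, ENST00000555309 had 5536 and 4338 counts in shCtrl and 193 and 511 in shIGF2BP3, a share of 37.8% and 24.6% against 1.06% and 3.13% (edgeR adjusted p = 0.686). ENST00000555914 of HNRNPC held 7.45% and 0.250% in shCtrl and 25.02% and 27.3% in shIGF2BP3. Another transcript of that gene, ENST00000420743, held 0.868% and 20.0% in shCtrl and 36.2% and 0% in shIGF2BP3, so its replicates disagreed.

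Several other small p values rested on 1 library. ENST00000435711 of HNRNPA3 held 2.12% and 2.26% in shCtrl, 2.33% in shIGF2BP3 replicate 1 and 21.3% in replicate 2 (edgeR adjusted p = 0.482). ENST00000510411 and ENST00000442819 of HNRNPH1 held at most 0.773% in the first 3 libraries and 12.7% and 11.8% in shIGF2BP3 replicate 2. ENST00000593587 of HNRNPUL1 had 3 or 4 counts in 3 libraries and 17258 counts, 55.2% of the gene, in shIGF2BP3 replicate 2. It did not pass the low-count filter and so had no p in the main usage test. Without that filter the edgeR usage test called it at an adjusted p under 0.05. In contrast, ENST00000374255, a minor transcript of PTBP3, was alike within each group, with 40 and 22 counts in shCtrl and 0 and 1 in shIGF2BP3 (edgeR adjusted p = 0.0918).

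A group's leading transcript was taken as the one of highest mean share over its 2 libraries. It was the same in both groups in 26 of the 36 members and in every library in 22. In the other 10 it differed between groups: HNRNPC, HNRNPD, HNRNPH3, HNRNPLL, HNRNPM, HNRNPUL1, one MATR3 gene, PTBP1, PTBP3 and SRSF11. How often the leading transcript differed over all genes was not counted, so this number cannot be read as particular to the members. Nor did single libraries always follow the mean. In HNRNPC, HNRNPM, HNRNPUL1 and the MATR3 gene the leader of shIGF2BP3 did not lead in its replicate 1. In PTBP3 that leader was already slightly ahead in shCtrl replicate 2 (49.4% against 48.6%). In SRSF11, ENST00000370951 led in shCtrl by its mean (46.1% and 38.1%, against 32.8% and 27.7% in shIGF2BP3). ENST00000370949 led in shIGF2BP3 (46.2% and 49.7%, against 33.7% and 38.7% in shCtrl) and was slightly ahead in shCtrl replicate 2. In HNRNPD, ENST00000509263 held 33.3% and 32.4% in shCtrl and 29.5% and 14.3% in shIGF2BP3, where ENST00000353341 led with 30.6% and 37.3%. In HNRNPLL, ENST00000409328 held 40.1% and 35.3% in shCtrl against 0% and 12.3% in shIGF2BP3, and a count of 0 allows up to 0.234%. None of these 3 shifts had an edgeR usage p at or below 0.05. The leading transcripts of HNRNPM, ENST00000348943 and ENST00000600806, ranged from 23.9% to 45.2% and from 30.3% to 39.4% over the 4 libraries.

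Shares of 112 of the 245 member transcripts (45.7%) did not overlap between groups, against 38.4% of all transcripts tested. In 21 of the 245 they were in addition at least 10 percentage points apart, a smaller part than the 13.0% of all transcripts tested. Besides the genes above, these 21 included HNRNPR, where ENST00000302271 held 61.1% and 65.6% in shCtrl and 78.1% and 83.2% in shIGF2BP3. They also included SRSF6, where ENST00000483871 held 9.70% and 5.41% in shCtrl and 19.1% and 18.5% in shIGF2BP3. The gene level of SRSF6, another SR protein, was 229.7 to 235 CPM over the 4 libraries. Neither transcript passed the edgeR usage test, while limma's diffSplice called that of HNRNPR (adjusted p = 0.0360).

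The distance between 2 libraries in transcript make-up was taken as the sum of the share differences in 1 direction, in percentage points. For the median member it was 8.05 between the shCtrl libraries, 10.5 between the shIGF2BP3 libraries and 14.3 between groups. The medians over 7818 genes were 9.84, 10.4 and 15.1, so the members' values were close to those of genes at large. In 10 of 36 members every between-group distance exceeded both within-group distances, against 10.9% of all genes: MATR3 (ENSG00000015479), PTBP3, HNRNPC, HNRNPH3, PTBP1, HNRNPR, SRSF11, SRSF6, TRA2B and SRSF4. The between-group mean was 52.1 points in PTBP3 and 45.2 points in HNRNPH3, where replicates lay at most 5.82 and 4.04 points apart. It was 2.00 points in SRSF4 and 4.31 points in TRA2B. HNRNPA2B1, the most abundant member, had a between-group mean of 0.969 points, within the 1.66 points between its shIGF2BP3 replicates.

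**Figure D4:**
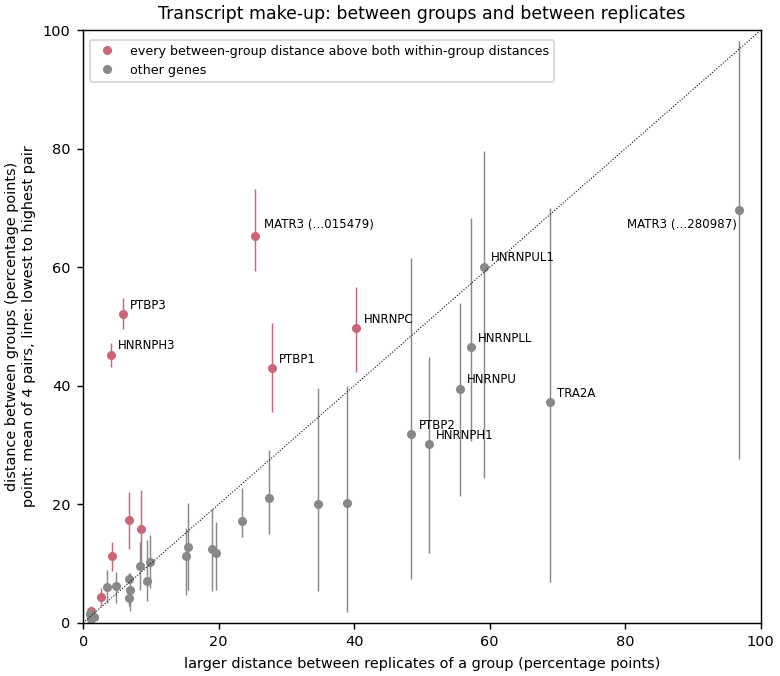
Distance in transcript make-up for 36 members, in percentage points: the larger distance between replicates of a group on the horizontal axis, and the distance between groups on the vertical axis, with points for the mean of 4 pairs and lines from the lowest to the highest pair. PTBP3 and HNRNPH3 stand far above the dotted line of equality, and the second MATR3 gene, TRA2A and HNRNPUL1 have the largest distances between replicates.

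In a further 6 of the 36 members, libraries with the same replicate number were closer to each other than to any other library, against 8.8% of all genes. This was looked for after the shares were seen. TRA2A was the clearest of them: ENST00000297071 held 78.0% in shCtrl replicate 1 and 78.6% in shIGF2BP3 replicate 1, but 24.4% and 10.5% in the libraries numbered 2. SRSF9 behaved alike, with 59.2% and 64.2% for ENST00000229390 in the libraries numbered 1 and 97.4% and 99.1% in those numbered 2. HNRNPF, a binder of G-runs, had 53.6% and 64.7% for ENST00000337970 in the libraries numbered 1 and 88.2% and 93.2% in those numbered 2. The gene levels of HNRNPF followed the number too, with 349 and 342 CPM against 209 and 245 CPM. HNRNPM, SRSF2 and SRSF8 were the other 3. The numbers used here are those of the sample labels. In the deposited counts both knockdown libraries carry other numbers, so this pairing depends on which numbering is followed. The labels name no batch, and what the numbers share was not tested.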

How the data were processed

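Libraries of H1299 mRNA (shCtrl and shIGF2BP3, n = 2 each) were grouped by their sample titles. The submitters' processing notes name CASAVA, FastQC, Trimmomatic, HISAT2, bedtools and GRCh38; the counting tool, versions and annotation are not given in the sources used here. The authors deposited, for each transcript, an estimated count in whole numbers without normalization, and an FPKM value scaled by length and library size. Columns number the shIGF2BP3 libraries 2 and 3, the labels 1 and 2, and the labels were followed.

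Counts and FPKM were summed per Ensembl gene. Symbols came from the positions of protein-coding RefSeq genes (GRCh38.p14), by mutual best overlap with a shared length of at least 0.5 and a lead of 0.2, which found 43 members. For the other 3, at least 0.95 of the Ensembl gene lay inside the RefSeq span of the member. At SRSF1 and MATR3 it also had the strand of the Ensembl gene already matched, and for HNRNPA1L2 strand was not compared. The gene-level test was glmQLFTest of edgeR 4.0.16 under R 4.3.3 (TMM, filterByExpr at a minimum count of 10 and total of 15), adjusted by Benjamini-Hochberg over 13379 genes, and transcript usage with diffSpliceDGE (prior count 0.125). TMM factors were 0.927 to 1.085. A common biological coefficient of variation of 22.8% means that the number of libraries, rather than depth, limits precision. Replicates differed by more than sampling noise (chi-square per degree of freedom 78.9 and 77.5), and p-values measure only the spread between these libraries, which may be technical. Intervals of shares are 95% Wilson intervals, and a count of 0 was read as up to 3 counts. Make-up distances need 100 counts per gene and library. The gene-level and transcript usage tests of edgeR were tried on simulated counts, and the other steps were not.

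As alternatives, DESeq2 1.42.0, other scaling (RLE, totals) and filters, the exact test of edgeR, a replicate block, limma 3.58.1 on log2(FPKM + 1) and log2(FPKM + 0.1), diffSplice, shares from FPKM, a mean share of at least 5%, a shared length of 0.3 and leaving out each library were run. Pooling the genes of SRSF1 and MATR3 and removing mitochondrial genes were added after seeing the data. Members and lists were chosen with earlier results of these data known. Named genes were members past the thresholds, the 6 higher and 6 lower of smallest p, the 5 hnRNP and 5 SR genes of highest FPKM, and the PTBP, MATR3, SFPQ and TRA2 genes; named transcripts were those called, the 10 of smallest p and leading transcripts that differed between groups. Other names, such as SRSF12 and HNRNPC, were chosen after their values were seen. An item of the splicing lists is not reported here.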

Additional observations from a re-analysis of the deposited data

How the results depend on the processing

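For the gene level, no alternative placed a member under an adjusted p of 0.05, and the members' median stayed above 0 and above that of all genes. Scaling by library totals gave a median of 0.0702. The fits of limma gave 0.0561 on log2(FPKM + 1), 0.0560 without its filter and 0.0572 on log2(FPKM + 0.1), and each called 1 member lower at fold 1.5 and unadjusted p 0.05, HNRNPLL. When single libraries were left out the median was 0.0902 to 0.229, with 0 to 2 members called higher (both SRSF1 genes) and 0 to 1 called lower (a MATR3 gene). The medians of the other splicing lists lay within 0.15 of 0 under the alternatives run, and some changed sign. Under library totals they were -0.0042 for the hnRNP-like proteins, -0.0785 for the SR kinases and -0.0745 for decay factors. On log2(FPKM + 1), filtered or not, they were -0.0034 for the hnRNP-like proteins, -0.102 for core snRNP proteins and -0.0846 for decay factors. On log2(FPKM + 0.1) they were -0.0034, -0.102 and -0.0974 for the same lists and -0.0330 for SR-related proteins. Without single libraries they ran from -0.0145 to 0.0962 (hnRNP-like), 0.0276 to 0.129 (SR kinases), -0.0442 to 0.106 (SR-related), -0.0527 to 0.0815 (core snRNP) and -0.145 to 0.0130 (decay). The cause was not tested.

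Members called as genes by the Simes p of the usage test numbered 2. They numbered 0 where every library had to hold at least 10 counts, which removes the called transcripts by construction, 0 to 2 where single libraries were left out, and 1 with the overlapping genes pooled. In limma's diffSplice 6 member transcripts were called, of PTBP1, HNRNPH3, PTBP3 and HNRNPR. Libraries with the same number in the labels deviated together little over the genes tested (correlation 0.044). Over the members alone the correlation was -0.640, but the 2 MATR3 genes, whose counts are uncertain, had by far the widest opposite swings. ENSG00000280987 had 46.1 and 143 CPM in shCtrl against 147 and 4.21 CPM in shIGF2BP3. HNRNPF and SRSF9 deviated together instead. The correlation without MATR3 was not computed, so this value does not describe the members at large. Given the low correlation over all genes tested, the numbers were not taken to pair the samples. With the replicate number as a block, members called for their gene level stayed at 0. Members called as genes by the usage test went from 2 to 0, and all genes so called went from 237 to 10 of 8479. With 2 libraries per group small shifts in level are not detectable, and transcript counts are estimates that depend on how reads of similar transcripts were divided.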
